A study of Mus musculus with 9 samples.

Results

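Genes that are imprinted, and genes that drive growth in early life and are turned down afterwards, were followed through sexual maturation of the mouse oviduct. The set held 35 gene symbols, listed by name. These were 14 imprinted genes read from the paternal allele, 9 read from the maternal allele, the complex imprinted locus Gnas and the symbol Dcn-as. The others were 5 RNA-binding or oncofetal growth genes and a mixed group of 5: the growth factors Mdk and Ptn, the proteoglycan Gpc3, Nrep and Itm2a. Of the 35 symbols, 31 were measured by a probe set that names that gene alone, among 19937 genes measured in this way. H19, Igf2bp2 and Dcn-as matched no probe set by symbol, and Gnas was matched only by a probe set that it shares with Gnasas1.

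The tissue was the whole oviduct of female CD1 mice, an outbred strain, that had received no hormonal stimulation. In all, 3 states were sampled: sexually mature females in diestrus, sexually mature females in estrus, and sexually immature females at day 21, which were labelled as controls. Each state had 3 arrays (n = 3), and each array carried total RNA pooled from 5 animals, so that the p-values measure the spread between pools and not between animals. Values are log2 probe-set intensities from Affymetrix arrays, on which a step of 1 is a doubling. Array medians lay between 8.85 and 8.90. Since the tissue was taken whole, fewer cells of a type and less RNA per cell cannot be told apart.

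Imprinted genes are expressed mainly from the allele of 1 parent, through DNA methylation marks laid down in the germ line. Many of them set the pace of growth before and after birth: paternally expressed genes such as Igf2 and Peg3 are generally growth-promoting, and maternally expressed genes such as Igf2r, Grb10 and Cdkn1c generally restrain growth. In several mouse organs a shared programme that includes Igf2, Mest, Dlk1, Plagl1 and Peg3 is expressed strongly before weaning and declines as body growth slows. The immature animals here were thus at an age when that decline is under way in other organs. The arrays measure total RNA of a gene and do not separate the parental alleles.

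Promoter windows of RefSeq (build GRCm38.p6, from 250 bases before to 50 bases after the transcription start) were given for 23 of the 31 measured members, in 31 windows. Mest, Peg3 and Itm2a, which fell in the mature oviduct, had windows, and Mdk and Nrep, which also fell, had no entry. The windows are shown because the alternative starts of Mest differ in CpG content and because the hexamer TGCCGC, bound in its methylated form by the imprint keeper Zfp57, and the palindrome GGGGCCCC, which Plagl1 can bind, bear on imprinted genes. Capitals mark matches to either of these, read on either strand, so that TGCCGC on the reverse strand appears as GCGGCA. All 4 run 5′ to 3′ on the strand of the gene.
Mest, upstream start, chr6:30733256-30733555, plus strand: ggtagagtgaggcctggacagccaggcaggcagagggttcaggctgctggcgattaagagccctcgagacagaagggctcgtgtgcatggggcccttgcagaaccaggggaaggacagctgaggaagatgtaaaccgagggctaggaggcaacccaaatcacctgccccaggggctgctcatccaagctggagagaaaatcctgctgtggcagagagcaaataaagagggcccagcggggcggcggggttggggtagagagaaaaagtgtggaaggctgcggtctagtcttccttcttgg
Mest, downstream start, chr6:30737800-30738099, plus strand: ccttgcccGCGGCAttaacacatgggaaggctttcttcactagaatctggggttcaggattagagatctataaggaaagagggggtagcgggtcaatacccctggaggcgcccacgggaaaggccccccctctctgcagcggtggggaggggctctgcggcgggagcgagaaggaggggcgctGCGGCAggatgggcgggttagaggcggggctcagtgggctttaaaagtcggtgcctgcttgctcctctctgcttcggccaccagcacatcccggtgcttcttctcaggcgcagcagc
Peg3, chr7:6730370-6730669, minus strand: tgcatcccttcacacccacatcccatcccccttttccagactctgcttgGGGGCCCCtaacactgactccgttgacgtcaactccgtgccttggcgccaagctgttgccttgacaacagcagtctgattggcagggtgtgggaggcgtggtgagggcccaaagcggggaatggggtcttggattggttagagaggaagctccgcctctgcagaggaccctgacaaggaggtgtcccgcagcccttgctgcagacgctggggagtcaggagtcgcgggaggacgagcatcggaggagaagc
Itm2a, chrX:107403311-107403610, minus strand: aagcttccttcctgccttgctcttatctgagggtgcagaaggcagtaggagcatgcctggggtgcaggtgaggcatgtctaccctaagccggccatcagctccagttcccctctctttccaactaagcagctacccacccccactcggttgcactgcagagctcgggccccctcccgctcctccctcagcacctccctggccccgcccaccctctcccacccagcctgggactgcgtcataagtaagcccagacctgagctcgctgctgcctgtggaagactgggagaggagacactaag

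The downstream Mest window held 17 CpG dinucleotides and 2 matches to TGCCGC, and the upstream one held 8 CpGs and none. The Peg3 window held 13 CpGs and 1 match to GGGGCCCC, and the Itm2a window held 7 CpGs and no match to either motif. Among all 32851 RefSeq windows of this length the median was 7 CpGs, and among the 31 windows of measured members it was 14. The hexamer TGCCGC itself holds a CpG. TGCCGC was found in 11.6% of all windows and in 9 of the 31 windows of measured members, some of which overlap, as a Mest window not shown does with the downstream one. GGGGCCCC occurs in 1.08% of all windows and in 1 window of a measured member, that of Peg3. The letters GCCATNTT, the core that YY1 binds, were present in 6.05% of all windows and TTTCCCGC, an E2F site, in 1.07%, and neither was found in a window of a measured member. These are matches of letters, on both strands, and the arrays hold no measure of binding or methylation. GGGGCCCC reads the same on both strands, and no match of one motif overlapped a match of the other in the windows shown.

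When both mature states were set against the immature oviduct, 5 of the 31 members fell and 0 rose: the paternally expressed genes Mest and Peg3, and the growth genes Mdk, Nrep and Itm2a. Their fitted differences lay between -0.60 and -0.41 on the log2 scale, which is 1.33-fold to 1.52-fold lower in intensity. Calls were made with limma across all 28214 probe sets at a Benjamini-Hochberg adjusted p under 0.05, and the mature value is the mean of the diestrus and estrus means. By the same rule 0.312% of all probe sets were called lower and 0.121% higher. At an unadjusted p under 0.05, 13 members were lower and 2 higher, against 6.81% and 3.2% of all probe sets. In 9 members all 6 mature arrays lay below all 3 immature arrays and in 0 members above them, against 3.18% and 1.4% of probe sets. The members' median difference was -0.07, beside 0.01 over all probe sets, and 21 of the 31 had a lower mean in the mature oviduct, against 45.7% of probe sets. The members were chosen with earlier results of these data known, so these counts and those below describe the set and do not test it. In all, 10 of the 31 probe sets lay below the median of every array, where a level above background cannot be taken for granted.

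The calls rested on every immature array. Without any 1 of the immature arrays no member was called in the mature comparison, and the same was found without estrus 2. Calls over all probe sets fell as well, from 122 to 37, 14 and 25 without immature 1, 2 and 3, and to 53 without estrus 2. Without estrus 3 only Itm2a was called, without diestrus 1 or diestrus 2 only Mest, and without estrus 1 the count stayed at 5. Without diestrus 3 it was 8, the additional ones being Ndn, Grb10 and Ptn. Over all probe sets, 49, 47, 55 and 98 were called without estrus 3, diestrus 1, diestrus 2 and estrus 1, and 300 without diestrus 3. Over these and all other alternatives, the differences of the 5 genes kept their sign and lay between -0.71 and -0.37. No member was called without immature 2 and diestrus 2, the arrays on which ovarian marker genes were highest. Without that pair 9 of all probe sets were called, and leaving out immature 2 alone had already left no member called. The part of ovarian tissue in the calls was not tested.

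**Figure D1:**
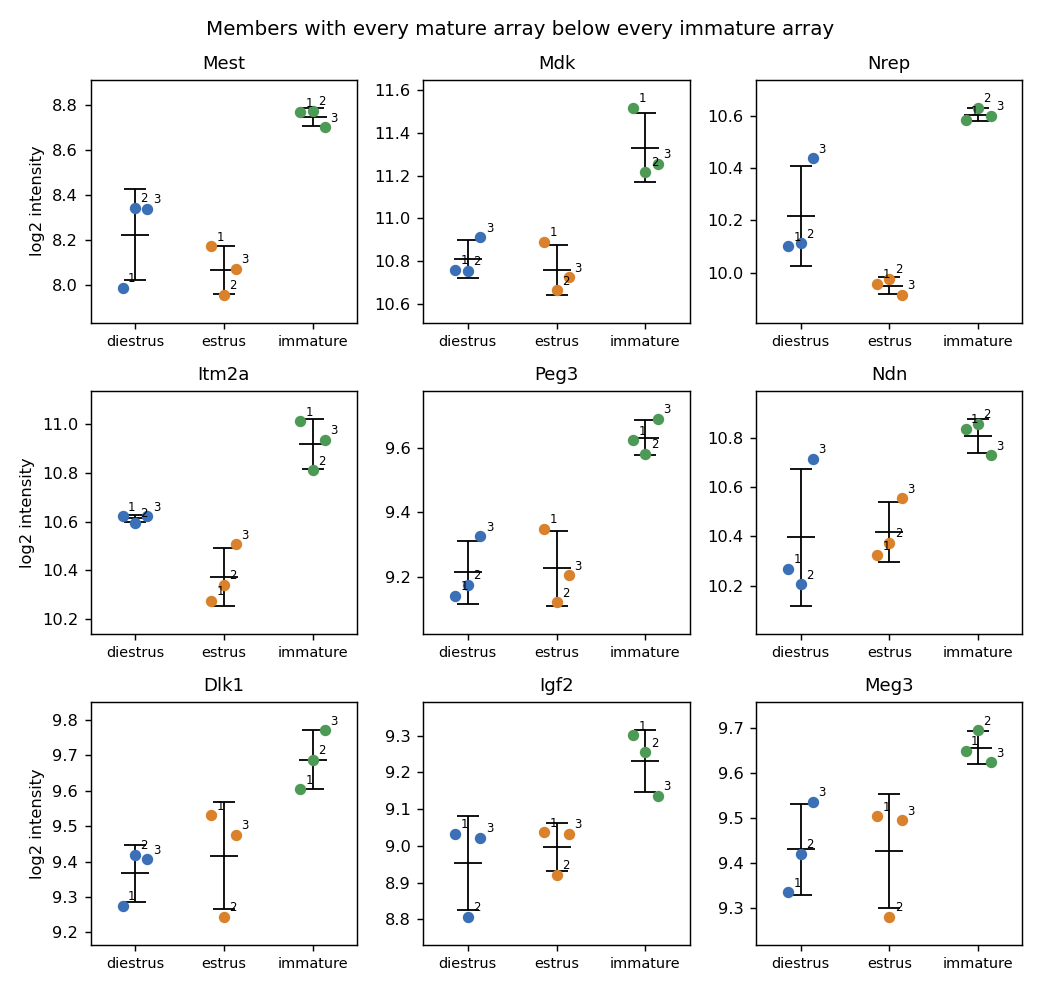
Log2 intensity (vertical axes) of the 9 members whose mature arrays all lay below the immature arrays, in diestrus, estrus and immature oviducts (horizontal axes). Points are arrays, numbered by replicate, and bars are the mean ± SD of 3 arrays. Mest averaged 8.22 in diestrus, 8.07 in estrus and 8.75 in immature oviducts, and the mature and immature arrays do not overlap in any of the 9 panels.

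Mest, the mesoderm-specific transcript that encodes a hydrolase-like protein of the endoplasmic reticulum, had the largest difference among the members called. Its log2 intensity was 7.99, 8.34 and 8.34 in diestrus and 8.17, 7.96 and 8.07 in estrus, against 8.77, 8.78 and 8.70 in immature oviducts. Every mature array was thus below every immature one, and the diestrus and estrus arrays overlapped. The mature minus immature difference was -0.60 ± 0.08 (SE, limma adjusted p = 0.0228). Set against the immature arrays on their own, diestrus differed by -0.53 ± 0.10 (adjusted p = 0.0458) and estrus by -0.68 ± 0.10 (adjusted p = 0.0524), so that only the diestrus difference passed the threshold. The Mest probe set was a dim one, below the median of every array.

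Peg3, a zinc-finger transcriptional regulator that is needed for normal growth and maternal behaviour in mice, fell in the mature oviduct by less. It read 9.14, 9.18 and 9.33 in diestrus and 9.35, 9.12 and 9.21 in estrus, against 9.62, 9.58 and 9.69 in immature oviducts. The difference of the mature states was -0.41 ± 0.06 (adjusted p = 0.0321). Against immature it was -0.42 ± 0.07 in diestrus (adjusted p = 0.0395) and -0.41 ± 0.07 in estrus (adjusted p = 0.119). The diestrus minus estrus difference was -0.01 ± 0.07 (adjusted p = 0.998).

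Of the 14 paternally expressed members, Mest and Peg3 passed the test, 10 had a lower mean in the mature oviduct (45.7% of all probe sets), and their median difference was -0.08. Igf2, the insulin-like growth factor that drives fetal growth, read 9.03, 8.81 and 9.02 in diestrus and 9.04, 8.92 and 9.03 in estrus, against 9.30, 9.26 and 9.14 in immature oviducts. All mature arrays were below all immature ones, but the difference of -0.26 ± 0.07 did not pass (adjusted p = 0.184). Dlk1, a membrane protein of the Notch ligand type that holds back adipocyte differentiation, read 9.28, 9.42 and 9.41 in diestrus and 9.53, 9.24 and 9.48 in estrus, against 9.61, 9.69 and 9.77 in immature oviducts. Its groups did not overlap either, and its difference was -0.30 ± 0.07 (adjusted p = 0.162). Ndn, which encodes the growth-suppressing MAGE protein necdin, read 10.27, 10.21 and 10.71 in diestrus and 10.32, 10.37 and 10.55 in estrus, against 10.84, 10.86 and 10.73 in immature oviducts. Its difference was -0.40 ± 0.11 (adjusted p = 0.202), and diestrus 3 stood apart, just under the lowest immature array. Without diestrus 3 the difference of Ndn was -0.48 ± 0.07 (adjusted p = 0.0144).

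Plagl1, a zinc-finger factor that regulates other imprinted genes, did not show this pattern. It read 10.15, 10.13 and 9.97 in diestrus and 9.90, 10.06 and 10.10 in estrus, against 10.10, 10.17 and 10.10 in immature oviducts, and the groups overlapped. Its difference was -0.07 ± 0.06 (adjusted p = 0.726). Peg10, derived from a retrotransposon and needed for placental development, read 10.08, 10.32 and 9.86 in diestrus and 9.78, 10.10 and 9.94 in estrus, against 10.26, 10.57 and 10.23 in immature oviducts. Diestrus 2 overlapped the immature range, and the difference was -0.34 ± 0.12 (adjusted p = 0.349). Sgce, the sarcoglycan gene that shares the Peg10 promoter region, differed by -0.01 ± 0.06 (adjusted p = 0.955). The differences of Peg12, Magel2, Rtl1 and Zdbf2 lay between -0.09 and 0.07, and the last 3 were below the median of every array.

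Nnat and Impact were the paternally expressed members with the highest positive differences, and neither passed the test. Nnat, a small membrane proteolipid of endocrine and nervous tissue, read 10.61, 11.97 and 10.84 in diestrus and 10.49, 10.72 and 10.23 in estrus, against 10.89, 10.41 and 10.51 in immature oviducts. Diestrus 2 stood far above the other 8 arrays, and the diestrus minus immature difference was 0.54 ± 0.30 (adjusted p = 0.505). Diestrus 2 was also an array on which ovarian marker genes were high: their mean level over 12 genes spanned 7.97 to 9.23 in diestrus, 7.95 to 8.10 in estrus and 7.93 to 9.01 in immature oviducts. On immature 2, the immature array with a mean of 9.01, Nnat read 10.41, the lowest of its group. The part of the ovarian genes in the Nnat values was not tested. Impact, a regulator of translation under amino acid starvation, read 10.70, 10.60 and 10.77 in diestrus and 10.79, 10.89 and 10.80 in estrus, against 10.61, 10.60 and 10.48 in immature oviducts. Its estrus arrays were all above those of the other states, with an estrus minus immature difference of 0.26 ± 0.06 (adjusted p = 0.285).

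Of the 9 maternally expressed members 8 were measured, and 0 of them were called in any comparison in the fit with limma (by unadjusted p under 0.05, 2 were lower and 1 higher in the mature oviduct, against 6.81% and 3.2% of all probe sets). Their median difference was 0.00, and 4 of the 8 had a lower mean, close to the 45.7% of all probe sets. Meg3, the non-coding RNA of the Dlk1 locus, read 9.34, 9.42 and 9.54 in diestrus and 9.50, 9.28 and 9.49 in estrus, against 9.65, 9.70 and 9.62 in immature oviducts. All mature arrays were below the immature ones, with a difference of -0.23 ± 0.07 (adjusted p = 0.246). Dlk1 and Meg3, read from opposite parental alleles of 1 locus, were therefore both without overlap and both short of the threshold in the mature comparison. With array weights in the limma fit both were called lower in diestrus than in immature oviducts (adjusted p = 0.0357 and 0.0419). That fit called 1288 of all probe sets in the same comparison.

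Grb10, an adaptor that dampens insulin and IGF receptor signalling, read 10.29, 10.35 and 10.68 in diestrus and 10.54, 10.54 and 10.58 in estrus, against 10.82, 10.66 and 10.76 in immature oviducts. Diestrus 3 was the only mature array above an immature one, by a small margin, and the difference was -0.25 ± 0.08 (adjusted p = 0.317). Without diestrus 3 it was -0.31 ± 0.05 (adjusted p = 0.0313). Igf2r, the receptor that clears Igf2 from the cell surface, read 10.33, 10.40 and 10.64 in diestrus and 10.19, 10.32 and 10.16 in estrus, against 10.39, 10.37 and 10.55 in immature oviducts. The mature states together differed by -0.10 ± 0.08 from immature (adjusted p = 0.705). Cdkn1c, the cyclin-dependent kinase inhibitor p57, read 9.26, 9.25 and 9.09 in diestrus and 9.31, 9.39 and 9.20 in estrus, against 9.29, 9.24 and 9.17 in immature oviducts. Its groups overlapped throughout, and the difference was 0.02 ± 0.06 (adjusted p = 0.942), with a sign that turned under 3 alternatives. The shared probe set of Gnas and its antisense Gnasas1 averaged 11.39 ± 0.00 in diestrus, 11.38 ± 0.03 in estrus and 11.41 ± 0.02 in immature oviducts (SD). It cannot be assigned to either gene.

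Gatm, the first enzyme of creatine synthesis, which is imprinted in the mouse placenta, had the highest difference from immature of any member in diestrus. It read 12.13, 12.68 and 12.26 in diestrus and 11.71, 11.92 and 11.91 in estrus, against 11.79, 11.82 and 11.72 in immature oviducts. All diestrus arrays were above all others. The diestrus minus immature difference of 0.58 ± 0.12 did not pass (adjusted p = 0.0701), nor did the diestrus minus estrus difference of 0.51 ± 0.12 (adjusted p = 0.175). With dim probe sets left out or with array weights the diestrus minus immature difference passed (adjusted p = 0.0431 and 0.0258), and with array weights so did the diestrus minus estrus one (adjusted p = 0.0114). Ovarian genes were high on diestrus 2, the highest array of Gatm, with a mean level of 9.23, and stood at 8.49 on diestrus 3 and 7.97 on diestrus 1. Star, which carries cholesterol into mitochondria for steroid synthesis, read 8.72, 9.21 and 9.12 in diestrus and 8.38, 8.43 and 8.10 in estrus, against 8.12, 8.43 and 8.29 in immature oviducts. All its diestrus arrays were above all others, as for Gatm, and it was called higher in diestrus than in immature oviducts (0.74 ± 0.14, adjusted p = 0.0463). Star was the only 1 of the 12 ovarian genes called in that comparison (0.294% of all probe sets were called higher). Of the 12, 7 had a lower mean in diestrus (46.3% of all probe sets), and the median difference of the 12 was -0.01. At an unadjusted p under 0.05, 1 was lower and 2 higher (8.95% and 4.44% of all probe sets). Akr1c18, Cyp11a1 and Hsd3b1 were higher in diestrus by 1.55 ± 0.85, 1.27 ± 0.49 and 0.74 ± 0.68, without a call (adjusted p = 0.485, 0.298 and 0.709). Amh, Fshr, Gdf9 and Zp3 were below the median of every array. The part of ovarian tissue in the Gatm values was not tested. The other maternally expressed members, Phlda2, Ascl2 and Zim1, were below the median of every array and differed by -0.02 to 0.12 between the mature states and immature.

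**Figure D2:**
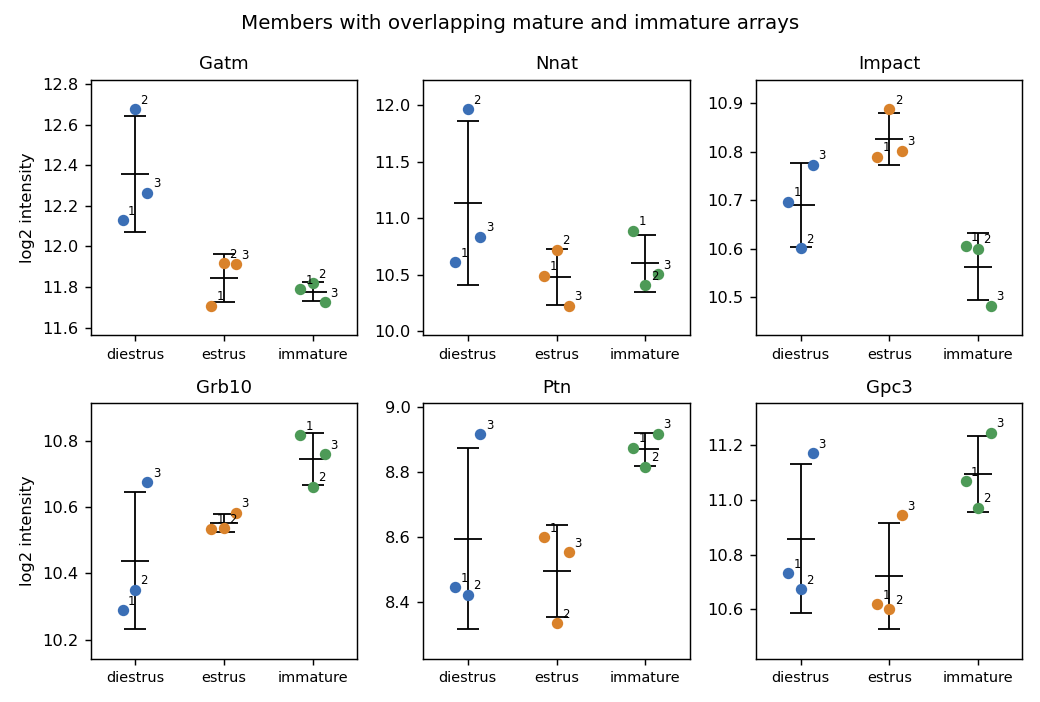
Log2 intensity (vertical axes) of Gatm, Nnat, Impact, Grb10, Ptn and Gpc3 in diestrus, estrus and immature oviducts (horizontal axes). Points are arrays, numbered by replicate, and bars are the mean ± SD of 3 arrays. The Gatm points of diestrus, from 12.13 to 12.68, lie above those of both other states, Nnat is highest on diestrus 2 at 11.97, and Grb10, Ptn and Gpc3 are highest within diestrus on array 3.

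Of the mixed group of 5, the growth factor Mdk fell in the mature oviduct, as did Nrep and Itm2a, which are not growth factors or matrix proteins. All 5 had lower means there, with differences of -0.55 to -0.31 and a median of -0.43. Mdk, the heparin-binding growth factor midkine, read 10.76, 10.76 and 10.91 in diestrus and 10.89, 10.66 and 10.73 in estrus, against 11.52, 11.22 and 11.26 in immature oviducts. The highest mature array was well below the lowest immature one. The mature minus immature difference was -0.55 ± 0.08 (adjusted p = 0.0252). Diestrus differed from immature by -0.52 ± 0.09 (adjusted p = 0.039) and estrus by -0.57 ± 0.09 (adjusted p = 0.0864). Ptn, pleiotrophin, the close relative of midkine, read 8.45, 8.42 and 8.92 in diestrus and 8.60, 8.34 and 8.55 in estrus, against 8.88, 8.82 and 8.92 in immature oviducts. Only diestrus 3 reached the immature range, and the difference was -0.32 ± 0.11 (adjusted p = 0.335). Without diestrus 3 it was -0.41 ± 0.07 (adjusted p = 0.0307).

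Nrep, a small intracellular protein of wound myofibroblasts and regenerating neurons, read 10.10, 10.11 and 10.44 in diestrus and 9.96, 9.98 and 9.92 in estrus, against 10.58, 10.63 and 10.60 in immature oviducts. The 3 states formed 3 ranges without overlap, estrus lowest and immature highest. The mature states differed from immature by -0.52 ± 0.07 (adjusted p = 0.024). The estrus minus immature difference of -0.65 ± 0.09 passed (adjusted p = 0.0369), while that of diestrus, -0.39 ± 0.09, did not (adjusted p = 0.0763). Itm2a, a membrane protein known from differentiating cartilage, muscle and T cells, read 10.62, 10.60 and 10.62 in diestrus and 10.28, 10.34 and 10.51 in estrus, against 11.01, 10.81 and 10.94 in immature oviducts. Its order was the same as that of Nrep, again with no overlap. The mature difference was -0.43 ± 0.06 (adjusted p = 0.0266), the estrus one -0.55 ± 0.07 (adjusted p = 0.0374) and the diestrus one -0.31 ± 0.07 (adjusted p = 0.0996). Gpc3, a heparan sulfate proteoglycan that restrains growth, read 10.73, 10.67 and 11.17 in diestrus and 10.62, 10.60 and 10.95 in estrus, against 11.07, 10.97 and 11.25 in immature oviducts. Diestrus 3 lay inside the immature range, and the difference was -0.31 ± 0.12 (adjusted p = 0.445).

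The RNA-binding and oncofetal genes showed no call and small differences. Their 4 measured members differed by -0.01 to 0.03 between the mature states and immature, and 0 were called in the limma fit (0 also at an unadjusted p under 0.05). Lin28b, the RNA-binding protein that blocks let-7 maturation, read 6.85, 6.85 and 6.88 in diestrus and 6.89, 6.81 and 6.85 in estrus, against 6.85, 6.88 and 6.82 in immature oviducts. The difference was 0.01 ± 0.04 (adjusted p = 0.962), and the probe set lay below the median of every array, as did those of Igf2bp1 and Igf2bp3, so that RNA above background was not shown in any state. Hmga2, a chromatin protein of growing embryonic tissue and a let-7 target, read 9.18, 9.23 and 9.12 in diestrus and 9.14, 9.26 and 9.13 in estrus, against 9.20, 9.22 and 9.15 in immature oviducts. Its groups overlapped almost fully, with a difference of -0.01 ± 0.05 (adjusted p = 0.948). The signs of both genes turned under some alternatives.

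**Figure D3:**
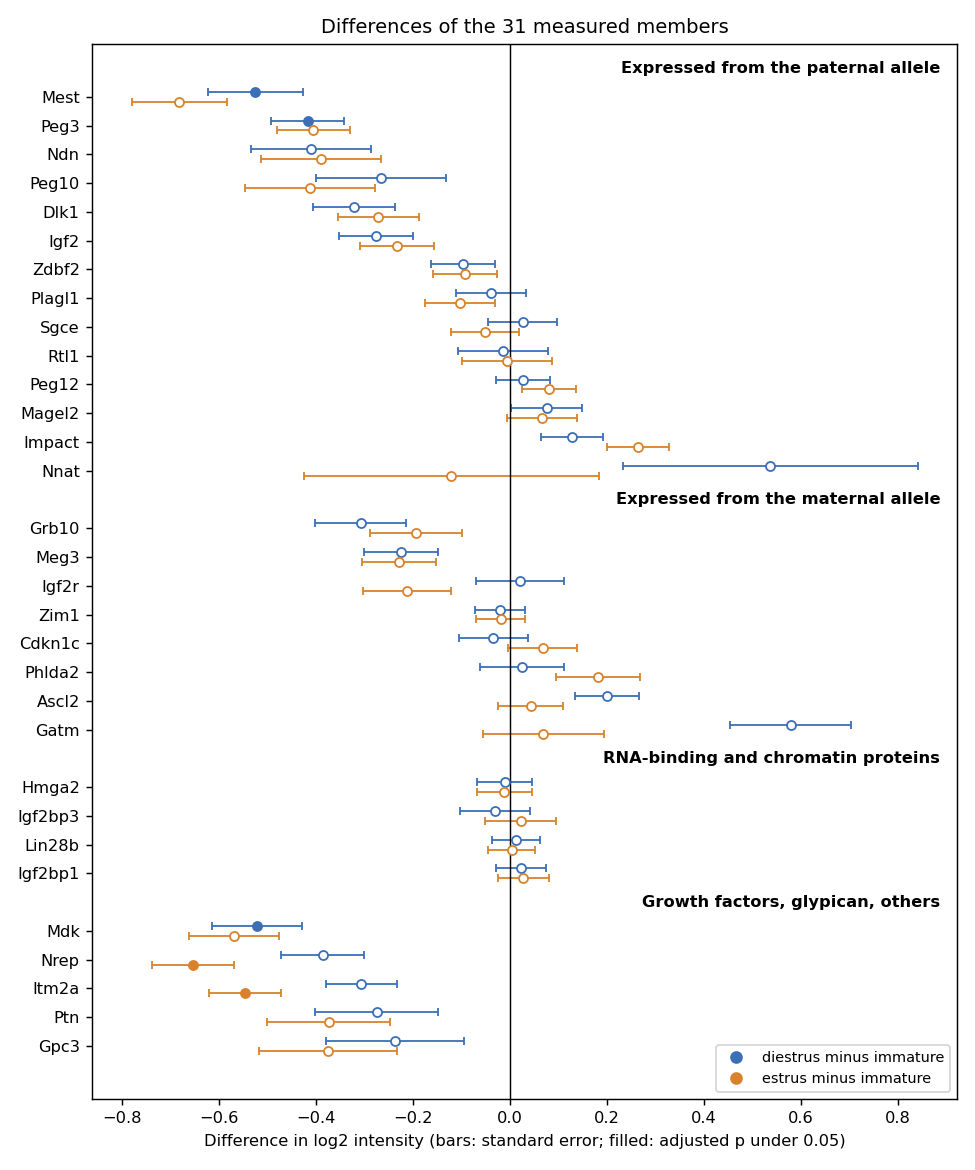
Log2 difference from immature (horizontal axis) of the 31 measured members, for diestrus (blue) and estrus (orange), both against the same 3 immature arrays. Bars are the limma SE and filled points have an adjusted p under 0.05: Mest, Peg3 and Mdk in diestrus, Nrep and Itm2a in estrus.

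Taken by state, 3 members fell in diestrus against immature (Mest, Peg3 and Mdk) and 0 rose, while 0.705% of all probe sets were called lower and 0.294% higher. In estrus 2 members fell (Nrep and Itm2a) and 0 rose, against 0.0532% and 0.0319% of probe sets. The 2 comparisons use the same 3 immature arrays and are not independent. Leaving out 1 array, no member was called in diestrus without any immature array, estrus 3, diestrus 1 or diestrus 2, and 1, 2 and 7 were called without estrus 1, estrus 2 and diestrus 3. In estrus, 1 was called without diestrus 1 and 4 without diestrus 3, and 0 without any other array. Over all probe sets these calls ranged from 41 to 533 in diestrus and from 1 to 95 in estrus, against 282 and 24 with all arrays. The highest counts, 533 and 95, were those without diestrus 3. No overlap with immature, in the lower direction, was seen for 9 members in diestrus (10.9% of probe sets) and 14 in estrus (6.62%), and in the higher direction for 2 members in each (7.52% in diestrus and 3.19% in estrus). At an unadjusted p under 0.05, 10 members were lower and 2 higher in diestrus, against 8.95% and 4.44% of probe sets, and 13 were lower and 1 higher in estrus, against 4.27% and 2.25%. Means were lower for 20 members in diestrus and 21 in estrus, where 46.3% and 45.1% of probe sets had a lower mean. The members' median difference was -0.04 in diestrus and -0.10 in estrus, beside 0.01 over all probe sets in both.

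Within the cycle no member passed the test: 0 of 31 were called in diestrus minus estrus by limma, where 0.159% of all probe sets were called in either direction. At an unadjusted p under 0.05, 5 members were higher in diestrus and 0 lower, against 3.85% and 5.48% of probe sets, and 14 had a lower mean in diestrus, against 53.1%. With array weights in the fit the count of called members was 7, and with every other alternative it was 0. Gatm, Igf2r, Nrep, Itm2a and the dim Ascl2 had all diestrus arrays above all estrus arrays (4.93% of probe sets), and Impact had them all below (6.85% of probe sets). For Nrep the difference was 0.27 ± 0.09 (adjusted p = 0.316), for Itm2a 0.24 ± 0.07 (adjusted p = 0.296) and for Igf2r 0.23 ± 0.09 (adjusted p = 0.439). The calls of Nrep and Itm2a in estrus and not in diestrus were thus not accompanied by a difference between these states that passed the test. The same holds for Mest, Peg3 and Mdk, called in diestrus only, with diestrus minus estrus differences of 0.16 ± 0.10, -0.01 ± 0.07 and 0.05 ± 0.09 (adjusted p = 0.737, 0.998 and 0.977).

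Marker genes of other cell types and of dividing cells also differed between arrays. The proliferation list (14 of 15 genes measured, 5 of them below the median of every array) had a mean level of 8.42 to 9.06 in diestrus, 8.38 to 8.82 in estrus and 9.28 to 9.40 in immature oviducts, so that its mature and immature arrays did not overlap. Ccna2, Ccnb2 and Kif11, a pair of mitotic cyclins and a spindle motor, were its members called lower in the mature oviduct, at -1.13 ± 0.15, -0.92 ± 0.15 and -0.69 ± 0.10 (adjusted p = 0.0193, 0.0339 and 0.0272). The 6 stromal markers had 10.998 to 12.05 in diestrus, 11.07 to 11.31 in estrus and 11.35 to 11.57 in immature oviducts, with diestrus 3 the highest of all arrays. On diestrus 3 the stromal genes stood at a median of 0.60 and the smooth muscle genes at 0.56 above their immature means, and the proliferation list was at -0.29, against -0.95 on diestrus 1 and -0.75 on diestrus 2. Of the 21 members not below the median of every array, 12 were highest within diestrus on diestrus 3, against 31.4% of all probe sets. They were the called genes Peg3, Mdk and Nrep, and Ndn, Grb10, Ptn, Gpc3, Sgce, Peg12, Impact, Igf2r and Meg3. The called gene Itm2a was tied between diestrus 1 and diestrus 3, and Mest was highest on diestrus 2 by a small margin. The fat markers (6 of 7 measured, Adipoq and Lep below the median of every array) had 8.09 to 8.38 in diestrus, 8.17 to 8.33 in estrus and 8.30 to 8.97 in immature oviducts. The part of dividing, stromal, muscle or fat cells in the members' differences was not tested. Oviduct markers were bright in all states. The secretory-cell genes (5 of 6 measured, Msx2 below the median of every array) had 11.11 to 11.18 in diestrus, 11.17 to 11.25 in estrus and 11.23 to 11.26 in immature oviducts. The 6 ciliated-cell genes had 11.48 to 11.69 in diestrus, 11.49 to 11.67 in estrus and 11.58 to 11.89 in immature oviducts.

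**Figure D4:**
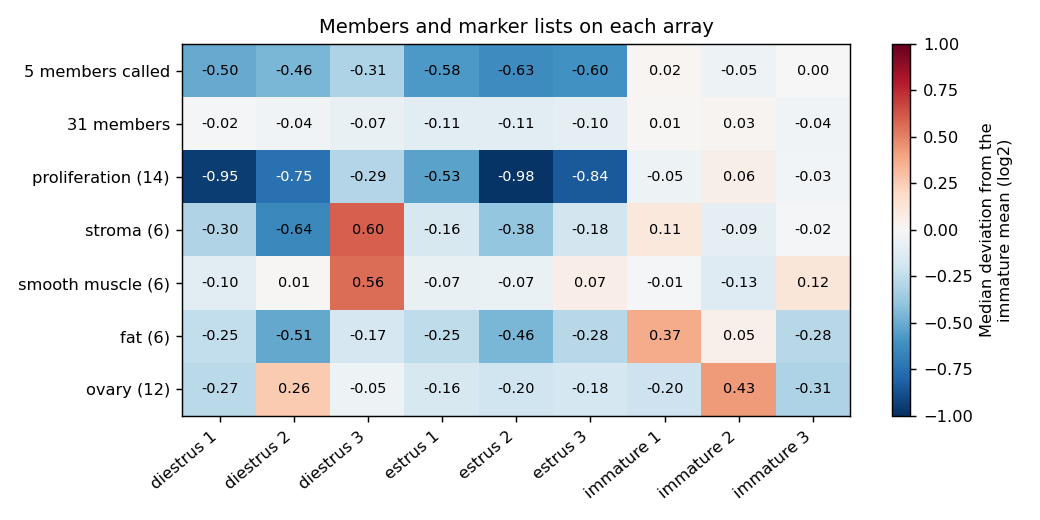
Median deviation from the immature mean (log2, colour and printed value) of the 5 called members, of all 31 measured members and of marker lists (rows, with the number of genes) on each array (columns, diestrus, estrus, immature). The called members were chosen for this difference and are shown as a description: they lie at -0.50, -0.46 and -0.31 in diestrus and at -0.58, -0.63 and -0.60 in estrus, while the proliferation list lies between -0.98 and -0.29 on the mature arrays and the stromal list at 0.60 on diestrus 3.

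Further genes, from lists of these pathways, were not called in any comparison in the limma fit when each was read by its brightest probe set. Among 36 other imprinted genes (of 47 listed) the mature minus immature differences lay between -0.28 and 0.16 with a median of 0.00, and 2 were lower and 1 higher at an unadjusted p under 0.05 (6.81% and 3.2% of all probe sets). Cd81 differed by -0.06 ± 0.05 (adjusted p = 0.736) and H13 by 0.11 ± 0.05 (adjusted p = 0.5). The 23 measured microRNA genes of imprinted loci (of 27) differed by -0.12 to 0.10, with 0 at an unadjusted p under 0.05. Their median was 0.01, the same as over all probe sets.

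Of the 18 genes listed for imprint and methylation control, 13 had a lower mean in the mature oviduct, with a median difference of -0.06. At an unadjusted p under 0.05, 5 were lower and 0 higher. Over all probe sets, 45.7% had a lower mean, and 6.81% were lower and 3.2% higher by that p. Trim28, the co-repressor that Zfp57 recruits, differed by -0.21 ± 0.06 (adjusted p = 0.241) and Smchd1, a chromatin protein of silenced loci, by -0.15 ± 0.08 (adjusted p = 0.568). Tet1, a 5-methylcytosine dioxygenase, had 3 probe sets, all lower in estrus than in immature oviducts without overlap, of which 1 passed the test. That one, which lay below the median of every array, was called lower in estrus (-0.42 ± 0.05, adjusted p = 0.0369) and in the mature states together (-0.28 ± 0.05, adjusted p = 0.0421). The brightest differed by -0.39 ± 0.10 in estrus (adjusted p = 0.299) and by -0.21 ± 0.08 in the mature states (adjusted p = 0.431), and the other by -0.26 ± 0.05 and -0.19 ± 0.05 (adjusted p = 0.176 and 0.148). The 11 genes of the juvenile growth programme of other organs had a median difference of -0.05, with 3 lower and 0 higher at an unadjusted p under 0.05, Smo at -0.05 ± 0.07 and E2f5 at -0.08 ± 0.07 (adjusted p = 0.833 and 0.703). On the let-7 and Lin28 axis 25 of 31 genes were measured, with differences of -0.30 to 0.21 and a median of -0.01. At an unadjusted p under 0.05, 4 were lower and 0 higher in the mature oviduct (6.81% and 3.2% of all probe sets). In diestrus minus immature 2 were lower and 3 higher by that p (8.95% and 4.44%), with differences up to 0.49. By level, Ccnd1 was at -0.03 ± 0.06 and Tut4 at -0.05 ± 0.08 in the mature states (adjusted p = 0.881 and 0.854). Among 20 of 21 receptors and relatives of the members the median was 0.04, with 1 lower and 0 higher at an unadjusted p under 0.05. Notch2 differed by -0.01 ± 0.07 and Irs1 by -0.12 ± 0.06 in the mature states (adjusted p = 0.982 and 0.512). In diestrus Irs1, the docking protein of the IGF and insulin receptors, was at -0.33 ± 0.07 against immature and at -0.41 ± 0.07 against estrus, close to the threshold in both (adjusted p = 0.0542 and 0.0549).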

How the data were processed

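The deposited values were probe-set summaries of 9 arrays on a log2 scale, made by the authors with Affymetrix Expression Console and RMA per the submitters' processing notes. The log base was taken from the range of the values. The sources used here name no genome build for the array files. No value was missing and no 2 arrays were identical. Of 28214 probe sets, 21640 carried 1 gene symbol, 1321 several and 5253 none, by the platform annotation, whose symbols can be old. A gene was read by the probe set that names it alone and has the highest mean over the 9 arrays.

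From these values, 1 linear model of the 3 groups was fitted with limma 3.58.1 in R 4.3.3 (lmFit and eBayes, 6 residual degrees of freedom), with 4 contrasts, two-sided tests and Benjamini-Hochberg adjustment over all probe sets. A call is an adjusted p under 0.05. Differences are given ± SE and group means ± SD (n = 3). A probe set below the median of every array was not shown to be above background. Precision is limited by having 3 arrays a group. The fit was also run on simulated arrays with independent noise. These lack departures of single arrays such as that of diestrus 3, so the run does not bear on how far the calls hold here. Members given with full statistics were those called in any contrast, with Igf2, Igf2r, Dlk1, Meg3, Plagl1, Cdkn1c, Grb10, Gnas, Ptn, Gpc3, Lin28b and Hmga2 (and H19 and Igf2bp2, had they been measured). Nnat, Impact, Gatm, Ndn, Peg10, Tet1, Star and, for its diestrus values, Irs1 were named after their values were seen, and 2 genes not called were named per further list by level, miRNA genes excepted. The members and lists were chosen with earlier results of these data known. Promoter sequences are those of RefSeq, build GRCm38.p6.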

Additional observations from a re-analysis of the deposited data

How the results depend on the processing

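Counts of called members, given here for diestrus minus immature, estrus minus immature, diestrus minus estrus and mature minus immature in that order, were 3, 2, 0 and 5, and those of all probe sets 282, 24, 45 and 122. The same counts were 0, 0, 0 and 1 for members and 121, 4, 13 and 44 for probe sets with the replicate number as a block, where only Mdk remained called in the mature comparison. The labels do not state that the numbers pair the arrays, so the main fit had no block. Deviations from the group means correlated at -0.29 to 0.17 between same-numbered arrays of different groups, and at -0.26 to 0.29 between differently numbered ones. Array weights gave 11, 6, 7 and 6 for members and 1288, 1023, 3331 and 578 for probe sets. The 11 were Igf2, Dlk1, Mest, Peg3, Ndn, Meg3, Grb10, Mdk, Nrep and Itm2a, all lower, and Gatm, higher. The 6 in estrus minus immature were Mest, Peg3, Mdk, Nrep and Itm2a, all lower, and Impact, higher. The 7 were Nnat, Igf2r, Ascl2, Gatm and Nrep, higher in diestrus, and Impact and Grb10, lower. Requiring 1.5-fold gave 0, 1, 0 and 1, and 112 (diestrus minus immature), 28 (diestrus minus estrus) and 55 (mature) probe sets. At an adjusted p under 0.01 they were 0 for members throughout, and 31, 2, 1 and 16. Cyclic loess left 0 members and 5 probe sets in estrus minus immature. Fitting only the groups compared left 0 members and 85 probe sets in diestrus minus immature and 0 probe sets within the cycle. Dropping dim probe sets gave 4 members in diestrus minus immature (Peg3, Mdk and Nrep lower, Gatm higher) and 131 probe sets within the cycle, and testing only probe sets with 1 symbol 91 within the cycle and 12 in estrus minus immature. Leaving out pairs of arrays gave 0 members in all comparisons: probe sets numbered 10, 2, 0 and 9 without immature 2 and diestrus 2 (ovarian genes high), and 4, 2, 0 and 3 without immature 1 and 2 (fat genes high). Without immature 2, diestrus 2 and diestrus 3, a choice made after seeing the data, they numbered 3, 2, 0 and 3. Leaving out 1 array in turn, member counts ranged over 0 to 7, 0 to 4, 0 and 0 to 8, and probe-set counts over 41 to 533, 1 to 95, 1 to 105 and 14 to 300.

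The members' median difference moved to -0.23, -0.22 and -0.24 (diestrus, estrus, mature, each minus immature) without dim probe sets, which drops low members. It was -0.062 (diestrus) and -0.077 (estrus) after quantile normalization, 0.030 (diestrus minus estrus) and -0.096 (mature) without immature 2 and diestrus 2, -0.026 (estrus) and -0.018 (mature) without immature 1 and 2, and -0.086 (diestrus) and -0.11 (mature) without the 3 arrays. Leaving out 1 array in turn, it lay between -0.072 and -0.014 in diestrus, -0.13 and -0.057 in estrus, -0.083 and -0.042 in the mature states and -0.01 and 0.043 within the cycle.

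Signs turned for 6 differences, none of them called. For mature minus immature, Cdkn1c was -0.022 with array weights and between -0.017 and 0.045 leaving out 1 array in turn. Lin28b was -0.033 after quantile normalization, -0.025 after cyclic loess, -0.0038 with median centring, -0.00063 with array weights and between -0.0087 and 0.024 leaving out 1 array. Hmga2 was 0.027 without immature 1 and 2, 0.0017 without the 3 arrays and between -0.032 and 0.0032 leaving out 1. For diestrus minus estrus, Mest, at 0.16 with all arrays, was -0.079 and Mdk -0.00033 without the 3 arrays, and Peg3 0.0075 without immature 2 and diestrus 2. Leaving out 1 array, Mdk lay between -0.0023 and 0.11 and Peg3 between -0.068 and 0.050. The cause of these changes was not tested.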

Other observations

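A probe set that names both Mir675 and Supt6, singled out after its values were seen, fell in the mature oviduct. Mir675 is a microRNA processed from H19, the maternally expressed non-coding RNA that no probe set names, and Supt6 is a histone chaperone of transcription elongation. The probe set read 8.77, 8.63 and 8.56 in diestrus and 8.68, 8.66 and 8.71 in estrus, against 9.15, 9.16 and 9.14 in immature oviducts. Every mature array was well below the immature ones. Its limma differences were -0.48 ± 0.05 for the mature states, -0.50 ± 0.06 for diestrus and -0.47 ± 0.06 for estrus, each minus immature (adjusted p = 0.00888, 0.0112 and 0.0369). The probe set that names Supt6 alone differed by -0.06 ± 0.06 between the mature states and immature (adjusted p = 0.742). No position on the genome was given for the shared probe set, so which of the genes it reports was not determined here.

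Diestrus 3 was the highest diestrus array for 12 of the 21 members that were not below every array's median, while 31.4% of all probe sets were highest there. Without it, 7 members were called in diestrus minus immature: Mest, Peg3, Ndn, Grb10, Mdk, Ptn and Nrep. Calls over all 28214 probe sets rose as well, from 282 with all arrays to 533 without it.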
